A study of Mus musculus with 8 samples.

Results

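Platelets are fragments shed by megakaryocytes, and they carry messenger RNA that the parent cell made. Their granules hold chemokines, adhesive proteins and clotting factors, and their surface carries receptors for collagen, von Willebrand factor, fibrinogen and ADP. In mice the spleen, the organ sampled here, holds megakaryocytes and stores platelets, and Itga2, the gene of the CD49b antigen used to sort NK cells, also encodes a collagen receptor chain of platelets.

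A list of 34 platelet and megakaryocyte genes was read out by name from the 54838 genes in RNA sequencing counts of splenic natural killer (NK) cells. The teNK group had 4 libraries from MMTV-PyMT mice, described as tumour-bearing, in which a viral oncogene driven by a mammary promoter gives rise to breast tumours. The hNK group had 4 libraries from healthy WT FVB/n mice. All cells were sorted as CD45+/CD49b+/CD3- and kept 12 to 16 h in medium with cytokines, so both groups share the sort and the culture. The sources used here give neither the strain carrying the MMTV-PyMT transgene nor the cytokines, nor the number or age of animals behind each library. They do not state that replicates came from separate animals, so each p-value reflects the scatter of these 8 libraries alone, part of which may be technical. Repeat sequencing runs are noted for the teNK libraries and not for the hNK libraries, so effects of sequencing and of group cannot be told apart.

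Reads on genes numbered 13111043 to 16209895 in teNK and 5202131 to 12419324 in hNK, so low values in hNK carry more counting error. Levels are CPM, reads of a gene relative to all reads on genes, scaled by TMM, a correction for library composition, and a floor of 3 reads corresponded to 0.190 to 0.241 CPM in teNK and 0.238 to 0.541 CPM in hNK. NK cell markers were abundant in both groups, with 16 of 16 genes tested, 13 higher and 1 lower in teNK, a median log2 fold change of 1.08 and summed levels of 10830 to 11560 CPM in teNK and 5793 to 7018 CPM in hNK. Of the 13903 genes tested, 3665 were higher and 3557 lower in teNK. With libraries scaled to total counts instead, 2710 were higher and 5113 lower, and the median log2 fold change of all genes shifted by -0.13.

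Most of the platelet genes rose in teNK. Of the 34, 32 passed the filter on low counts and were tested, 30 were called higher, 1 was called lower and 1 was not called (edgeR quasi-likelihood test, Benjamini-Hochberg adjusted p under 0.05). Over all genes tested, 26.4% were called higher and 25.6% lower, and the list was chosen with earlier results of these data known. Every teNK library was above every hNK library for 30 of the 32 tested genes, against 24.1% of all genes tested, and every teNK library was below every hNK library for 1, against 22.4%. The untested Gp1bb and Gfi1b also had every teNK library above every hNK library, on few reads. The median log2 fold change of the 32 tested genes was 3.94, and that of all genes tested was -0.02. The filter shapes these counts, because 15 of the 32 tested genes had no hNK library above its cutoff of 0.783 CPM and passed through teNK alone. It asks for 4 libraries above the cutoff. Another 6, Tubb1, Vwf, Thbs1, Gp1ba, Alox12 and Nfe2, had 1 or 2 hNK libraries above it and needed their teNK libraries to pass. For both sets the filter largely fixed the direction. In 11 genes all 4 hNK libraries were above the cutoff, and of those 9 were called higher, 1 lower and 1 was not called, with a median log2 fold change of 2.15. Among these 11, the rises of F5 (41.6-fold) and Mmrn1 (13.3-fold) were the ones above 10-fold, a size reached by 1.05% of all genes tested. In bulk RNA, fewer cells or platelets and less RNA in each cannot be told apart.

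**Figure D1:**
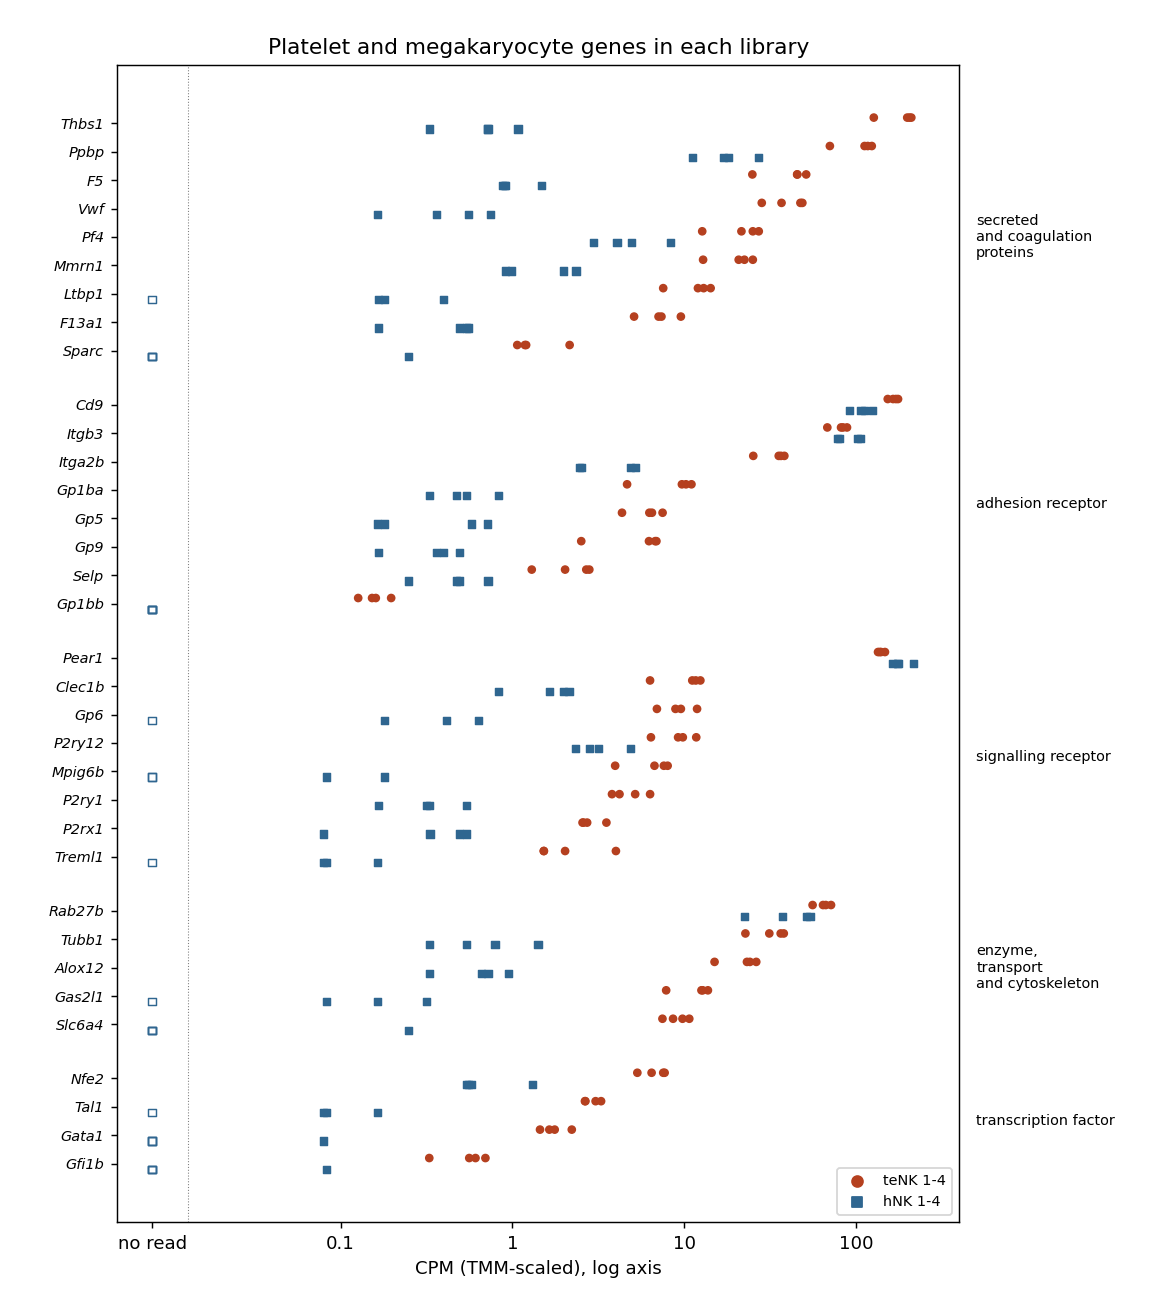
CPM of each of the 34 genes in each of the 8 libraries on a log axis, with teNK as circles above hNK as squares in each row and open squares for libraries with no read. The teNK points lie to the right of the hNK points in 32 rows, overlap them for Itgb3 and lie to their left for Pear1.

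The 9 genes of secreted and coagulation proteins all rose, with a median log2 fold change of 4.11. The share to set beside this and the role counts below is the 26.4% of all genes tested that were called higher. Only Ppbp, Pf4, F5 and Mmrn1 had all 4 hNK libraries above the filter cutoff. For the others the filter largely fixed the direction. Their summed level was 478, 472, 502 and 290 CPM in teNK replicates 1 to 4, against 25.2, 28.1, 17.6 and 40.4 CPM in hNK replicates 1 to 4. The groups did not overlap, teNK 4 was the lowest of its group, and hNK 4 was the highest of its own.

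Thbs1 encodes thrombospondin 1, an adhesive protein of the alpha granule that other cells also make. It had 199, 205, 210.0 and 127 CPM in teNK and 1.08, 0.713, 0.329 and 0.721 CPM in hNK. Its log2 fold change was 7.89 ± 0.23 (SE, adjusted p = 1.32e-13), the largest among the 32 genes tested. Vwf, von Willebrand factor, which links platelets to damaged vessel wall, had 47.5, 36.9, 48.7 and 28.3 CPM in teNK and 0.747, 0.555, 0.165 and 0.361 CPM in hNK (log2 fold change 6.25 ± 0.27). F5, coagulation factor V, had 45.5, 45.6, 51.3 and 24.95 CPM in teNK and 0.913, 0.872, 1.48 and 0.902 CPM in hNK (log2 fold change 5.38 ± 0.28). For all 3 genes, teNK 4 was low within a group that lay far above every hNK library.

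The chemokine genes Ppbp and Pf4, neighbours on chromosome 5 (GRCm38 positions 90768518 to 90770063 and 90772435 to 90773383), are among the most abundant messages of platelets. Ppbp, the platelet basic protein, had 117, 112, 124 and 70.5 CPM in teNK and 16.9, 18.1, 11.2 and 27.1 CPM in hNK. Its log2 fold change was 2.55 ± 0.19 (adjusted p = 9.99e-09). Pf4, platelet factor 4, had 21.6, 25.1, 27.2 and 12.7 CPM in teNK and 4.07, 4.91, 2.96 and 8.30 CPM in hNK, a log2 fold change of 2.15 ± 0.25 (adjusted p = 2.04e-06). Both rose less than Thbs1, Vwf and F5, and both were readily detected in hNK, where replicate 4 was the highest library and replicate 3 the lowest.

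Mmrn1, multimerin 1, which binds factor V, averaged 20.3 ± 5.25 CPM in teNK and 1.56 ± 0.716 CPM in hNK (SD, n = 4 each), a log2 fold change of 3.74 ± 0.27. F13a1, the A chain of the fibrin-crosslinking factor XIII, which monocytes also make, averaged 7.29 ± 1.82 CPM in teNK and 0.439 ± 0.184 CPM in hNK. Ltbp1, which binds latent TGF-beta, had 671 reads over the teNK libraries and 8 over the hNK libraries, a CPM ratio of 53.8 (exact 95% interval 27.1 to 125). Sparc, a collagen-binding protein, had 81 reads in teNK and 3 in hNK, a ratio of 17.3 (5.72 to 85.7), and all 3 hNK reads were in replicate 1. Without that library its fitted log2 fold change was 7.05 in place of 3.94. Ltbp1 likewise had 5 of its 8 hNK reads in replicate 2, and its fitted value was 6.42 without that library and 5.67 with it.

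Among the 8 adhesion receptor genes, 6 rose, Itgb3 was not called and Gp1bb was not tested. Only Itga2b, Itgb3 and Cd9 of these had all 4 hNK libraries above the filter cutoff. Itga2b and Itgb3 encode the chains of the fibrinogen receptor of platelets, and the Itgb3 chain also pairs with another alpha chain in many other cells. Itga2b (chromosome 11, 102453297 to 102470122) had 38.3, 36.6, 35.5 and 25.2 CPM in teNK and 5.23, 2.54, 2.47 and 4.87 CPM in hNK, a log2 fold change of 3.17 ± 0.20 (adjusted p = 1.13e-09). Itgb3 (chromosome 11, 104608000 to 104670476) had 84.1, 81.9, 88.7 and 68.1 CPM in teNK and 107, 102, 80.3 and 78.3 CPM in hNK. Its groups overlapped, and its log2 fold change of -0.20 ± 0.10 did not pass (adjusted p = 0.107). Without hNK replicate 3 or hNK replicate 4 Itgb3 was called lower, with log2 fold changes of -0.26 and -0.27 (adjusted p = 0.0450 and 0.0355). Reads of Itga2b per read of Itgb3 were 0.371 to 0.456 in teNK and 0.0248 to 0.0622 in hNK, so the chains changed unequally.

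The GPIb-IX-V complex, which captures platelets on von Willebrand factor, is encoded by Gp1ba, Gp1bb, Gp5 and Gp9. Gp1ba (chromosome 11, 70639122 to 70642036) had 10.2, 11.03, 9.70 and 4.65 CPM in teNK and 0.830, 0.476, 0.329 and 0.541 CPM in hNK, a log2 fold change of 3.93 ± 0.35. Gp5 averaged 6.15 ± 1.31 CPM in teNK and 0.410 ± 0.279 CPM in hNK, a log2 fold change of 3.63 ± 0.32. Gp9 had 6.24, 6.78, 6.90 and 2.52 CPM in teNK and 0.166, 0.396, 0.494 and 0.361 CPM in hNK. The CPM ratio of its pooled reads was 17.2 (9.69 to 33.5). Gp1bb had 3, 2, 2 and 2 reads in teNK and none in hNK, which is at or below the floor and allows no fold. In the annotation 91.1% of the exon bases of Gp1bb also belong to Sept5 on the same strand, so its count is uncertain.

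Selp, P-selectin, which endothelial cells also make, averaged 2.21 ± 0.697 CPM in teNK and 0.485 ± 0.193 CPM in hNK (log2 fold change 2.28 ± 0.38, adjusted p = 9.39e-05). Cd9, a tetraspanin of platelets and many other cells, had 176, 153, 171 and 164 CPM in teNK and 112, 124, 107 and 92.0 CPM in hNK. Cd9 rose 1.52-fold (log2 fold change 0.60 ± 0.08, adjusted p = 9.09e-06), a small change at a high level in all 8 libraries.

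**Figure D2:**
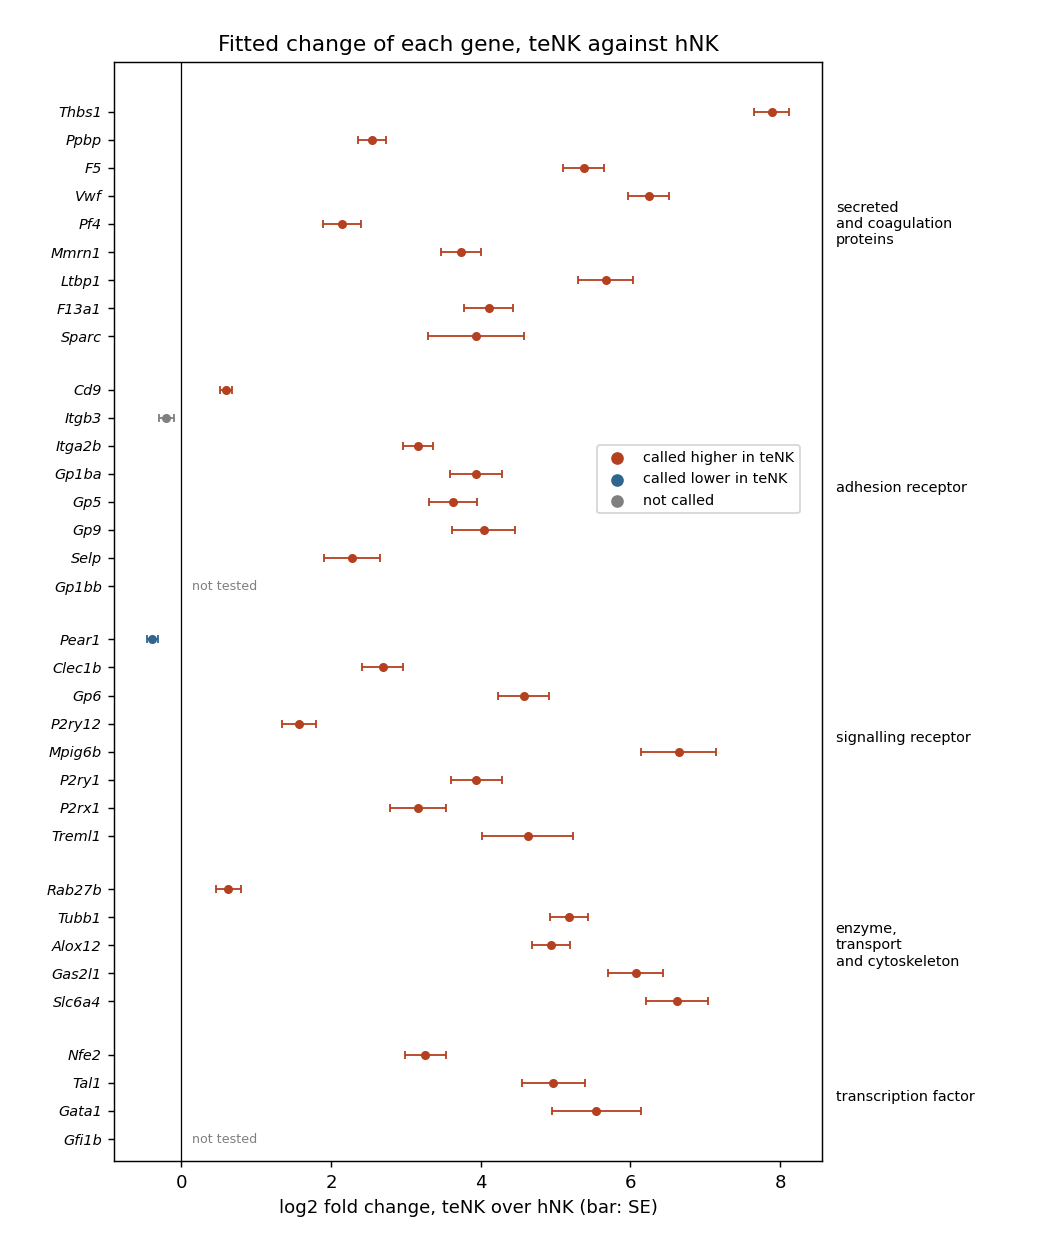
Fitted log2 fold change of each tested gene, teNK over hNK, with bars for the SE and genes grouped by role. Values run from -0.39 for Pear1 to 7.89 for Thbs1, and Gp1bb and Gfi1b were not tested.

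To set sequences of the listed genes side by side, promoter windows from 250 bases before to 50 bases after the start were taken. They came from RefSeq (GRCm38.p6), which matched 28 of the 34 genes with 31 windows. GATA words (AGATAA or AGATAG, and TGATAA or TGATAG, on either strand) stood in 38.7% of these windows and in 29.8% of all 32851 windows. ETS words (AGGAAG or CGGAAG, on either strand) stood in 51.6% of these windows and in 46.5% of all windows. RUNX words (TGTGGT, on either strand) stood in 16.1% of these windows and in 16.8% of all windows. The NF-E2 and AP-1 words (TGACTCA or TGAGTCA) stood in none of these windows and in 5.20% of all windows. No words overlapped in the windows of the 28 genes, and these shares are descriptions, not sites. GATA and ETS words stood together in 4 genes, of which 3 with reliable counts are printed with Itga2b, which had ETS words only. Capitals mark the GATA and ETS words, and each sequence reads 5′ to 3′ on the strand of the gene.
Pf4 (chr5:90772185-90772484, + strand): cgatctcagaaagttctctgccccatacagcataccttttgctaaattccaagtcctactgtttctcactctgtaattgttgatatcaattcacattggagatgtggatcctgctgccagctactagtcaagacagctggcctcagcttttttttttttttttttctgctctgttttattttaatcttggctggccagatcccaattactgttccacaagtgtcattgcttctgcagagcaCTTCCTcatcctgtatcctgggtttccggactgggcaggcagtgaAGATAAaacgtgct
Gp1ba (chr11:70638872-70639171, + strand): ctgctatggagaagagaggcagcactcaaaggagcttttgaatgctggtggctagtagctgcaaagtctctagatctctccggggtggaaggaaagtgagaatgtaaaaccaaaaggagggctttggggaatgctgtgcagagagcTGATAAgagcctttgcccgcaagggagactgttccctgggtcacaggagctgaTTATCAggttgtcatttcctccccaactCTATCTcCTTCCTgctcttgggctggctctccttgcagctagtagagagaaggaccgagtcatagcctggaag
Gp5 (chr16:30310732-30311031, - strand): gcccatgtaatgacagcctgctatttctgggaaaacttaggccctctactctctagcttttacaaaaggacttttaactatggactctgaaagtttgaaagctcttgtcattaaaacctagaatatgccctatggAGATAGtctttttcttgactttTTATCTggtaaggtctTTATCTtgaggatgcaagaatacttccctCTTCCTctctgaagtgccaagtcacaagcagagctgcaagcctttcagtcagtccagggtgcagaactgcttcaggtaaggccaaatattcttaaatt
Itga2b (chr11:102469834-102470133, - strand): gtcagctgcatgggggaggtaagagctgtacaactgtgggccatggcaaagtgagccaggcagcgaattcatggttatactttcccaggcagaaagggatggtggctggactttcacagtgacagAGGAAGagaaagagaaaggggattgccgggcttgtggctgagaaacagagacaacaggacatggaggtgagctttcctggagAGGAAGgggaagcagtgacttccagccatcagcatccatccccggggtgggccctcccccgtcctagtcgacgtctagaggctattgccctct

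Of the 8 signalling receptor genes, 7 rose and Pear1 fell. Only Pear1, Clec1b and P2ry12 had all 4 hNK libraries above the filter cutoff. Pear1, a platelet receptor that signals on cell contact (chromosome 3, 87747890 to 87824306), had 137, 147, 134 and 140.0 CPM in teNK and 215, 176, 174 and 163 CPM in hNK. Its log2 fold change was -0.39 ± 0.08 (adjusted p = 0.000544), and it was abundant in all 8 libraries. Clec1b (CLEC-2), the receptor for podoplanin, had 11.7, 11.1, 12.4 and 6.33 CPM in teNK and 0.830, 2.14, 1.65 and 1.98 CPM in hNK, a log2 fold change of 2.69 ± 0.27. Gp6, the signalling receptor for collagen, averaged 9.33 ± 2.04 CPM in teNK and 0.307 ± 0.276 CPM in hNK, a log2 fold change of 4.58 ± 0.34.

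The ADP receptor genes differed in their hNK level. P2ry12 had 11.8, 9.82, 9.22 and 6.41 CPM in teNK and 2.32, 3.17, 2.80 and 4.87 CPM in hNK, a log2 fold change of 1.57 ± 0.23 (adjusted p = 2.23e-05). P2ry1 had 4.20, 3.80, 6.33 and 5.19 CPM in teNK and 0.166, 0.317, 0.329 and 0.541 CPM in hNK, a CPM ratio of pooled reads of 15.8 (8.69 to 32.0). For P2rx1, an ATP-gated channel, the ratio was 9.33 (5.08 to 19.1). Treml1, a receptor stored in alpha granules, had 132 reads in teNK and 3 in hNK, a ratio of 28.2 (9.45 to 139). Mpig6b, an inhibitory receptor of platelets, had 122, 106, 95 and 52 reads in teNK and 1, 0, 0 and 1 in hNK, a ratio of 120 (33.1 to 997). Without hNK replicate 4 its fitted log2 fold change was 7.28 in place of 6.64.

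All 5 genes of enzymes, transport and the cytoskeleton rose. Only Rab27b had all 4 hNK libraries above the filter cutoff. Tubb1, the beta tubulin of the platelet marginal band, had 36.5, 31.3, 38.0 and 22.7 CPM in teNK and 1.41, 0.793, 0.329 and 0.541 CPM in hNK, a log2 fold change of 5.18 ± 0.25 (adjusted p = 5.45e-11). Alox12, the platelet lipoxygenase that acts on arachidonic acid, had 26.3, 23.2, 24.1 and 15.03 CPM in teNK and 0.664, 0.951, 0.329 and 0.721 CPM in hNK, a log2 fold change of 4.94 ± 0.26. Slc6a4, the serotonin transporter that loads platelets with serotonin, had 163, 136, 122 and 98 reads in teNK and 3, 0, 0 and 0 in hNK. Its ratio was 111 (37.8 to 540), and without hNK replicate 1, which held all 3 hNK reads, the fitted log2 fold change was 9.73 in place of 6.62. Gas2l1, a linker of actin and microtubules, had 672 reads in teNK and 6 in hNK, a ratio of 71.8 (32.8 to 196), with a fitted log2 fold change of 6.95 without hNK replicate 2 in place of 6.07. Rab27b, a small GTPase of granule secretion that is expressed in other secretory cells too, had 71.6, 66.7, 64.3 and 55.9 CPM in teNK and 37.2, 51.8, 54.0 and 22.4 CPM in hNK. Its rise was 1.55-fold (log2 fold change 0.63 ± 0.17, adjusted p = 0.00501).

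Of the 4 transcription factor genes, which act in the megakaryocyte and erythroid lineages, 3 rose and Gfi1b was not tested. None had all 4 hNK libraries above the filter cutoff. All were low, with a summed level of 12.8, 12.0, 12.7 and 10.4 CPM in teNK and 0.747, 0.713, 1.48 and 0.541 CPM in hNK. Nfe2 had 7.56, 6.46, 7.70 and 5.34 CPM in teNK and 0.581, 0.555, 1.32 and 0.541 CPM in hNK (log2 fold change 3.26 ± 0.27). Tal1 had 165 reads in teNK and 3 in hNK, a ratio of 35.3 (11.9 to 173). Gata1 had 25, 35, 22 and 19 reads in teNK and 0, 1, 0 and 0 in hNK, a ratio of 64.8 (11.4 to 2583), and its fitted log2 fold change was 7.36 without hNK replicate 2 in place of 5.55. Gfi1b had 31 reads in teNK and 1 in hNK (ratio 19.9, interval 3.31 to 810.3).

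Per kilobase of merged exons, which allows levels of different genes to be compared, Ppbp led in teNK at 97.7 ± 22.2 CPM per kb (SD, n = 4). Cd9 followed at 81.2 ± 4.79, then Thbs1 at 30.5 ± 6.43, Pf4 at 30.0 ± 8.84, Tubb1 at 22.9 ± 4.90 and Pear1 at 20.6 ± 0.826 CPM per kb. Neighbours in this order from Thbs1 to Pear1 lay within the larger SD of each pair. In hNK the order opened with Cd9 at 53.2 ± 6.55, Pear1 at 26.9 ± 3.39, Ppbp at 16.9 ± 6.05 and Itgb3 at 15.6 ± 2.47 CPM per kb, while Thbs1 had 0.117 ± 0.0504.

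Ratios between platelet transcripts within a library are given as a description, with no test. Ppbp had 4.47 to 5.53 reads per Pf4 read in teNK and 3.26 to 4.16 in hNK. Thbs1 had 1.70, 1.83, 1.70 and 1.80 reads per Ppbp read in teNK replicates 1 to 4, against 0.0637, 0.0395, 0.0294 and 0.0267 in hNK replicates 1 to 4. Vwf had 1.47 to 2.22 reads per Pf4 read in teNK and 0.0435 to 0.184 in hNK, and Tubb1 had 1.25 to 1.78 in teNK and 0.0652 to 0.347 in hNK. Apart from Ppbp per Pf4, these ratios lay far apart between the groups, and those of the low genes in hNK rest on 1 to 17 reads per library.

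**Figure D3:**
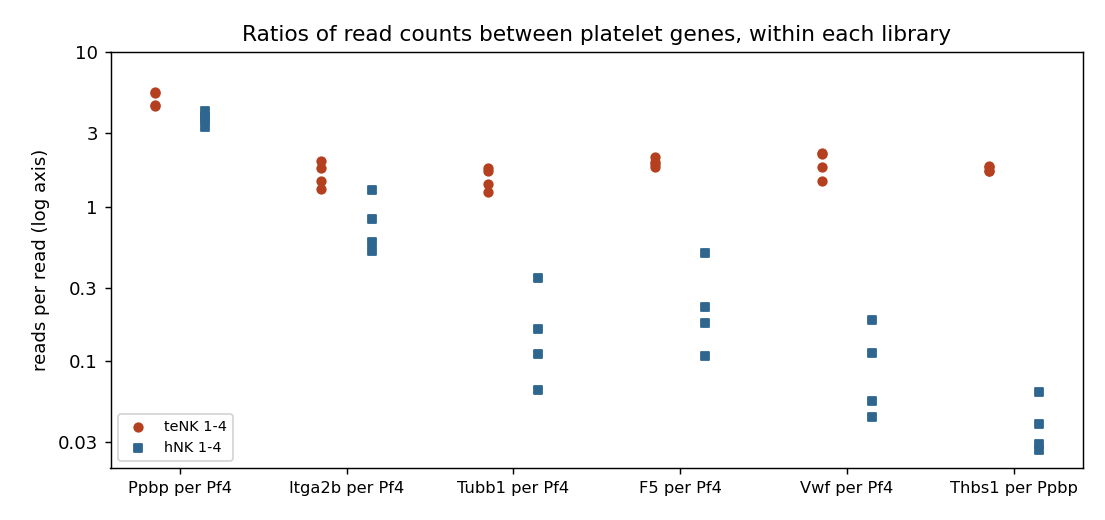
Reads of 1 gene per read of another within each library, on a log axis, for 6 pairs, with teNK as circles left of hNK as squares. Ppbp per Pf4 is 4.47 to 5.53 in teNK and 3.26 to 4.16 in hNK. For Itga2b per Pf4 the groups nearly meet, at 1.31 to 1.98 in teNK and 0.516 to 1.29 in hNK. The pairs further right lie further apart between the groups, up to Thbs1 per Ppbp.

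Within teNK most of the platelet genes shared their lowest library but not their highest. The highest was replicate 1 for 14 genes, replicate 2 for 7 and replicate 3 for 13. Replicate 4 had the lowest CPM for 26 of the 34 genes and the highest for none, where it was lowest for 23.2% of all genes tested. Its level was a median 64.1% of the mean of teNK replicates 1 to 3 over the 34 genes, against 100.1% over all genes tested. The secreted and coagulation genes ranged from 51.8% to 70.6%, and Thbs1 per Ppbp in teNK 4 lay within the range of the other libraries. The genes that did not follow this order included Pear1 (100.2%), Cd9 (98.8%), P2ry1 (108%), Tal1 (106%) and Gfi1b (115%). The coefficient of variation over the teNK libraries was 22.7% for Ppbp, 29.4% for Pf4 and 21.1% for Thbs1, but 5.89% for Cd9 and 4.01% for Pear1, where counting alone gives 1.95% to 5.70% for these 5 genes. In hNK, replicate 3 was the only lowest library for 11 of the 33 genes with a read, where it was lowest for 25.6% of all genes tested. It also tied for lowest, with no read, for Slc6a4, Mpig6b, Gata1, Gfi1b and Sparc. With 4 libraries a group and groups that form separate clusters, no correlation between genes was computed.

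**Figure D4:**
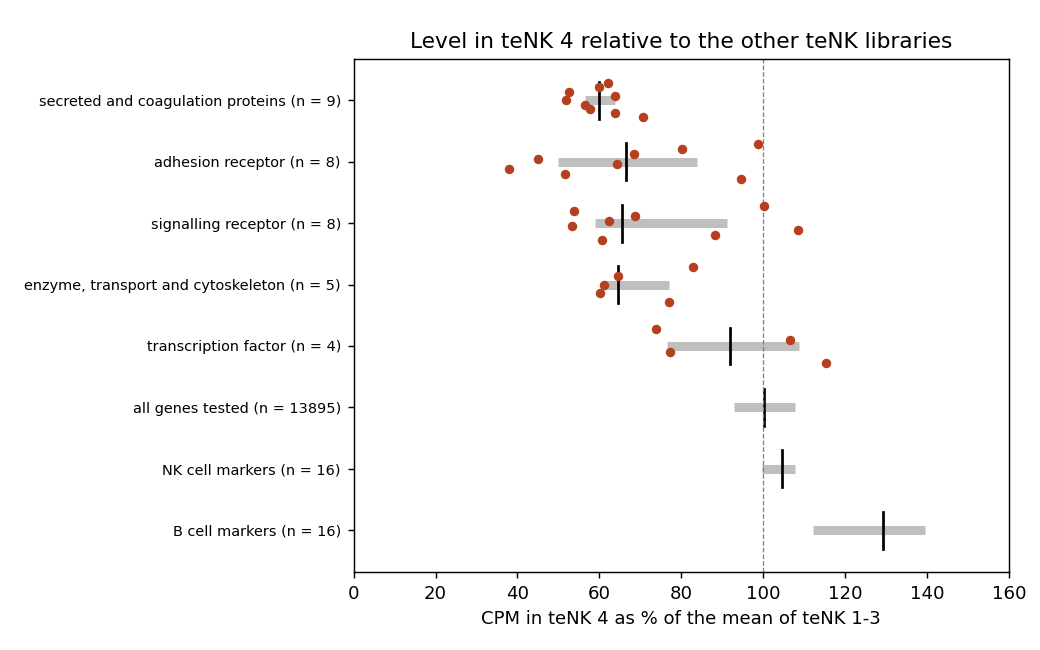
CPM in teNK 4 as a percentage of the mean of teNK replicates 1 to 3. Points are the platelet genes by role, black ticks medians and grey bars the range between the quartiles of each set, with all genes tested, NK cell markers and B cell markers below. The secreted and coagulation genes lie between 51.8% and 70.6%, and the medians of the 3 sets at the bottom are 100.1%, 104% and 129%.

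Without teNK replicate 4, 30 of the 34 genes were again called higher and 1 lower, and the median log2 fold change was 4.10. In the same library NK cell markers stood at a median 104% and B cell markers at 129% of the other teNK libraries. Other sets were low there too, with a median of 78.7% for 11 further eicosanoid and platelet enzyme genes, of which teNK 4 was lowest for 9, and of 59.0% for 3 mammary epithelial genes. Further platelet signalling genes had a median of 95.0%, and teNK 4 was lowest for 13 of 29.

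Of further genes of platelet biology, some of which lymphocytes also express, 139 were listed by role and 117 were tested. In teNK 80 were called higher, 11 lower and 26 were not called, with a median log2 fold change of 0.58, where 26.4% of all genes tested were called higher and 25.6% lower. Genes of these lists and of the marker lists that lay near 0 in hNK passed the filter through teNK alone, so that their calls could only be rises. Of 29 tested signalling genes, 25 rose and none fell. Among them Gucy1a1, a chain of the nitric oxide receptor, averaged 2.15 ± 0.314 CPM in teNK and 0.0649 ± 0.0856 CPM in hNK, and its partner chain Gucy1b1 4.81 ± 1.20 CPM in teNK and 0.358 ± 0.156 CPM in hNK. Of 19 surface receptor genes, 11 rose and 2 fell. Cd36, a scavenger receptor, averaged 2.07 ± 0.415 CPM in teNK and 0.0862 ± 0.0998 CPM in hNK. The thrombin receptor gene F2r fell by 0.64 and the integrin gene Itgb1 by 0.56 on the log2 scale.

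Of 24 cytoskeleton genes, 20 rose and 1 fell. Cald1, caldesmon, averaged 13.7 ± 3.74 CPM in teNK and 0.184 ± 0.238 CPM in hNK, and Parvb, an integrin-linked adaptor, 33.2 ± 7.80 CPM in teNK and 0.527 ± 0.598 CPM in hNK, while the myosin gene Myh9 fell by 0.20 on the log2 scale. Of 21 genes of granule contents and secretion, 10 rose and 3 fell. Clu, clusterin, averaged 14.8 ± 3.28 CPM in teNK and 0.818 ± 0.763 CPM in hNK, and Slc18a2, the vesicular monoamine transporter, 2.07 ± 0.241 CPM in teNK and 0.261 ± 0.316 CPM in hNK. Tgfb1 fell by 1.87 and Srgn, serglycin, by 0.51 on the log2 scale.

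Of 11 eicosanoid and other platelet enzyme genes, 7 rose and 2 fell. Ptgs1, cyclooxygenase 1, averaged 10.7 ± 0.916 CPM in teNK and 1.24 ± 0.261 CPM in hNK, and Mfap3l 11.01 ± 2.04 CPM in teNK and 2.30 ± 0.664 CPM in hNK. Mgll, monoacylglycerol lipase, fell by 2.60 and Ctla2a by 1.72 on the log2 scale. Of 13 further megakaryocyte transcription factor genes, 7 rose and 3 fell. Gata2 averaged 2.19 ± 0.691 CPM in teNK and 0.0610 ± 0.0786 CPM in hNK, and Cbfa2t3, a corepressor that binds Tal1, rose 7.16-fold. Mafg, a partner of Nfe2, fell by 1.85 and Meis1 by 0.59 on the log2 scale.

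Markers of other cells that share genes with platelets were read in the same libraries. Of 15 endothelial genes, 4 were tested and all 4 rose, with summed levels of 10.3 to 14.4 CPM in teNK and 1.62 to 2.80 CPM in hNK. In hNK all 4 lay below the filter cutoff in every library, apart from Sele in replicate 3, so the filter largely fixed this direction. Kdr averaged 2.23 ± 0.418 CPM in teNK and 0.206 ± 0.247 CPM in hNK, and Sele 2.12 ± 0.836 CPM in teNK and 0.432 ± 0.290 CPM in hNK, while Cdh5 had 35 reads in teNK and 0 in hNK and Emcn had no read in any library. Of 16 matched erythroid genes, 5 were tested, 4 rose and 1 fell, with summed levels of 64.5 to 74.8 CPM in teNK and 58.2 to 104 CPM in hNK. Tfrc, the transferrin receptor, made up most of that sum and fell by 0.72 on the log2 scale. Sptb averaged 4.96 ± 0.839 CPM in teNK and 0.566 ± 0.311 CPM in hNK, Ank1 5.04 ± 1.72 CPM in teNK and 2.19 ± 1.06 CPM in hNK, and Car1 2.15 ± 1.13 CPM in teNK with no read in hNK. The erythroid defining gene Klf1 had 13 reads in teNK and none in hNK. Of the 16 genes, 8 had no read in hNK, and 1, Hba-a2, had no read in any library.

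Of 12 basophil and mast cell genes, 2 were tested and both rose, with summed levels of 198 to 229 CPM in teNK and 59.3 to 78.5 CPM in hNK. Cma1 averaged 210 ± 14.3 CPM in teNK and 71.1 ± 8.30 CPM in hNK and made up most of the sum. The basophil gene Mcpt8 had 9 reads in teNK and 7 in hNK. Of the 12 genes, 5 had no read in hNK, and 1, the mast cell gene Mcpt4, had none in either group. Of 12 fibroblast genes, 1 was tested and not called, with summed levels of 2.22 to 2.81 CPM in teNK and 1.98 to 4.56 CPM in hNK, and Lum and Acta2 had no read. Of 16 monocyte and macrophage genes, 4 were tested, 1 rose and 2 fell, with summed levels of 372 to 430 CPM in teNK, mostly Ccr2, and 607 to 797 CPM in hNK. Lyz2 averaged 6.94 ± 2.12 CPM in teNK and 0.459 ± 0.320 CPM in hNK, Hmox1 1.65 ± 0.359 CPM in teNK and 46.3 ± 15.4 CPM in hNK, and the macrophage genes C1qa and C1qb had 1 read each in teNK and none in hNK.

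Of 10 dendritic cell genes, 3 were tested, 1 rose (Itgax, 69.9 ± 10.04 CPM in teNK and 7.59 ± 2.07 CPM in hNK) and 2 were not called. Their summed levels were 72.3 to 94.4 CPM in teNK, mostly Itgax, and 17.0 to 23.9 CPM in hNK. No neutrophil gene of 13 was tested, with summed levels of 1.97 to 8.67 CPM in teNK and 0 to 0.165 CPM in hNK, led by S100a9 and S100a8, and Ly6g, Camp, Retnlg and Mmp8 had no read. All 16 B cell genes were tested and 15 rose, with summed levels of 181 to 235 CPM in teNK and 91.1 to 135 CPM in hNK. Cr2 averaged 14.5 ± 3.35 CPM in teNK and 0.124 ± 0.158 CPM in hNK, and Cd74 33.6 ± 6.004 CPM in teNK and 3.91 ± 2.76 CPM in hNK. Cd22 averaged 9.85 ± 1.59 CPM in teNK and 0.435 ± 0.444 CPM in hNK, while Ighm, at 96.3 ± 6.97 CPM in teNK and 95.6 ± 17.8 CPM in hNK, was not called. Of 6 tested stem and progenitor genes of 10, 3 rose and 3 fell, with summed levels of 110.5 to 152 CPM in teNK and 201 to 322.5 CPM in hNK. Of 9 tested T cell genes of 14, 3 rose and 2 fell, with summed levels of 298 to 317 CPM in teNK and 291 to 339 CPM in hNK. Of 3 tested mammary epithelial genes of 12, 1 rose and 2 fell, with summed levels of 15.03 to 20.04 CPM in teNK and 29.6 to 34.4 CPM in hNK, and 8 had no read in any library. Among the sort genes, Itga2 rose (627 ± 10.4 CPM in teNK, 421 ± 16.2 CPM in hNK), Ptprc, which encodes CD45, rose (5324 ± 115 CPM in teNK, 3560 ± 131.5 CPM in hNK), and Cd3e was at 1.43 ± 0.539 CPM in teNK and 2.18 ± 1.45 CPM in hNK and was not called. Of the other CD3 chains, Cd3d rose, with 4.90 ± 0.526 CPM in teNK and 2.25 ± 0.928 CPM in hNK (log2 fold change 1.22 ± 0.24, adjusted p = 0.000403), and Cd3g, at 23.0 ± 2.95 CPM in teNK and 20.2 ± 8.45 CPM in hNK, was not called. The part of these cell types in the platelet gene values was not tested.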

How the data were processed

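Stranded poly(A) libraries of 8 samples were compared, 4 teNK and 4 hNK. The authors deposited whole-number read counts per Ensembl gene, with no normalization. The submitters' processing notes list the GRCm38 build and the tools HTSeq, HISAT2 2.1.0 and SAMtools, while strand setting and annotation release are not given in the sources used here. Reads assigned to no feature made up 32.3% to 41.2% of each library and ambiguous reads 1.52% to 2.07%, and the 5 summary lines stayed out of all tests. GENCODE M21 (GRCm38) gave symbols, positions and exon lengths for 54809 of 54838 genes.

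The members and lists were chosen with earlier results of these data known. Genes passing filterByExpr (13903) were scaled by TMM and tested in edgeR 4.0.16 (R 4.3.3) by the quasi-likelihood test on the group term, with Benjamini-Hochberg adjustment over all of them. The SE is the log2 fold change divided by the square root of F. Genes with 1 to 12 hNK reads also have a CPM ratio of pooled reads with an exact (Clopper-Pearson) 95% interval. Intervals and floors cover counting error only. Every gene of the list is named, and of other lists the strongest 2 rises and 2 falls at a mean of at least 1 CPM, the 2 highest for cell markers, and genes at or near 0. Genes named beyond this rule were chosen after their values were seen. Some genes that the rule selects are not reported here. The fit was tested on simulated data. Alternatives used DESeq2 1.42.0, limma 3.58.1, other scalings and filters, thinning, a replicate block and left-out libraries. Overlapping genes and antisense partners cannot be told apart where strand use is unknown.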

Additional observations from a re-analysis of the deposited data

Results flagged for a closer look

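A library stood far from the other 3 of its group in 13 of 80 groups of 4 values, where chance alone gives about 1 in 20 for continuous values. That rate does not hold for the 4 groups in which 1 library had 1 to 3 reads and the other 3 had none, nor for the 2 sums, which repeat the values of their genes. In teNK replicate 4 the summed level of the 34 genes was 853 CPM, with 1119 CPM in the nearest library. The summed level of the secreted and coagulation genes there was 290 CPM (nearest 472), Thbs1 had 127 CPM (nearest 199) and Gp9 2.52 CPM (nearest 6.24). P2rx1 was high in teNK replicate 3 at 3.53 CPM (nearest 2.73), and Sparc in teNK replicate 2 at 2.15 CPM (nearest 1.20).

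In hNK replicate 3, F5 was high at 1.48 CPM and Nfe2 at 1.32 CPM, from 9 and 8 reads. In hNK replicate 1, F13a1 was low at 0.166 CPM from 2 reads. Slc6a4 and Sparc were each high there at 0.249 CPM from 3 reads, and Gfi1b at 0.0830 CPM from 1 read, with no read in the other 3 libraries. Gata1 was high in hNK replicate 2 at 0.0793 CPM from 1 read.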

How the results depend on the processing

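Over 17 alternatives, 536 of 540 fold changes of the 32 tested genes kept their direction and side of the threshold, and the other 4 were Itgb3, called lower with total counts (log2 fold change -0.33, adjusted p = 0.0109), without a filter, and without hNK replicate 3 or 4. Its adjusted p ran from 0.0109 to 0.336 over all alternatives. Genes of the list called lower numbered 2 with total counts, 2 without a filter and 1 to 2 when 1 library was left out. Further platelet genes called lower numbered 17 with total counts, in place of 11. Markers of other cells called higher numbered 59 without a filter, where more genes are tested, in place of 33, an alternative for these lists chosen after seeing the data. Thinned to the shallowest library, 28 of the 34 genes were tested and 26 called higher. Correlations of deviations between teNK and hNK libraries were -0.13 to 0.19 for equal replicate numbers and -0.24 to 0.27 for unequal ones. These values cannot show whether libraries were prepared as pairs. With a replicate block 30 genes of the list were called higher and 1 lower. Further platelet genes were then 79 higher and 11 lower, and other markers 33 and 10. Depth limits the genes with few hNK reads.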
